A study of Mus musculus with 12 samples.

Results

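The 3 samples of unstimulated follicular (FO) B cells were described on their own, by the abundance of each gene within them. They are the 3 of 12 samples labelled Unstimulated, in a series with 4 groups of 3, and no stimulated sample enters any value given here. The cells were isolated by flow cytometric sorting from C57BL6 mice that were 10 weeks old, with no transgene or allele named in the labels. The other groups of the series received IFNα, CpG or both for 12 h, and whether the unstimulated cells were also kept in culture is not stated in the sources used here. RNA was measured by bulk RNA barcoding sequencing (BRB-seq), in which the oligo(dT) primer tags the 3′ end of every molecule with a barcode for the sample and with a unique molecular identifier (UMI). All 22561 genes with a row in the deposited UMI count table were used. A count stands for a molecule near the 3′ end and does not grow with transcript length. Levels in CPM (counts scaled to a total of 1000000) of different genes are therefore set side by side without a length correction. Such levels still depend on how well the 3′ end of each gene is annotated and on sequence shared with other genes.

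FO B cells are the resting, recirculating B cells of the spleen and lymph nodes. They carry IgM and IgD on the surface, home to follicles along a CXCL13 gradient, present antigen to T cells on MHC class II, and divide or differentiate after they meet antigen and a helper or innate signal. A resting lymphocyte is small and holds little RNA, so its transcriptome is largely that of its housekeeping and lineage genes.

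The totals were 1098670, 922450 and 1103064 UMI counts in samples 1, 2 and 3. A gene with 3 counts over the whole group would stand at 0.960 CPM, which was taken as the floor, and intervals and floors of this kind cover counting error only. No sample was a copy of another, since every pair differed beyond counting noise, with chi-square values of 2.02 to 2.31 for each degree of freedom. Pearson's r of log2(CPM + 1) was between 0.960 and 0.966 over 8085 genes at 10 CPM or more, given as a description because genes are not replicates of one another. The labels do not say whether the samples came from separate mice, so the SDs below (n = 3 throughout) may be technical.

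The transcriptome was broad, with a short head. A count was found in every sample for 11637 genes, and 6167 genes had none in any. The most abundant gene held 3.30% of the counts, the 10 most abundant held 13.0% ± 0.886, and the 100 most abundant held 33.6% ± 0.701. Together, 370 genes accounted for 50% of the counts, and the number taken sample by sample was 360, 355 and 388. Genes at 1000 CPM or more numbered 120 and held 35.8% of the counts. The 1639 genes from 100 to 1000 CPM held 38.0%, the 6326 genes from 10 to 100 CPM held 24.3%, and the 4290 genes from 1 to 10 CPM held 1.70%. The curve of cumulative share shows that the samples followed each other closely and that sample 3 was the least concentrated at its head.

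**Figure D1:**
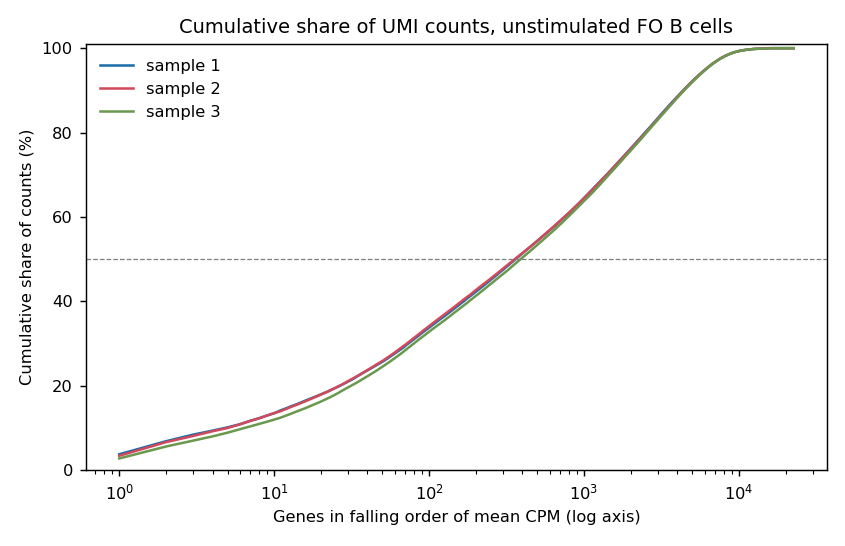
Cumulative share of UMI counts (%, vertical axis) against the number of genes in falling order of mean CPM (log axis), with 1 line for each of the 3 unstimulated samples and a dashed line at 50%. The lines cross 50% near 370 genes, and sample 3 lies below the others over the most abundant genes.

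The most abundant genes were also short ones. The median length of the longest annotated transcript was 1734.5 bases for protein-coding genes at 1000 CPM or more, and 3756.5 bases for those from 100 to 1000 CPM. Ribosomal protein genes were shorter than the other nuclear genes: the 54 of them at 1000 CPM or more had a median of 1240 bases, against 2108 bases for the 51 other nuclear protein-coding genes at that level. The relative spread between samples was smallest at the head, with a median coefficient of variation of 5.52% at 1000 CPM or more and 16.4% from 10 to 100 CPM.

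The 30 most abundant genes came from a few kinds: 9 encode cytosolic ribosomal proteins, 6 lie on the mitochondrial genome, 4 serve MHC class II and 3 encode immunoglobulin chains. The large mitochondrial rRNA, mt-Rnr2, stood at 37513, 33963 and 27607 CPM. Actb, which encodes β-actin, stood at 30805, 32245 and 28250 CPM. These ranges overlapped, and sample 3 had Actb first whereas the other two had mt-Rnr2 first. Cd74, the invariant chain that guides MHC class II molecules to the endosome, followed at 15731, 14735 and 13948 CPM, below Actb and above every later gene in each sample. Igkc, the constant segment of the κ light chain, stood at 9487, 11165 and 10053 CPM, and Ighm, the constant region of the μ heavy chain, at 7431, 8570 and 8126 CPM. Between them came CT010467.1, annotated as an rRNA gene, at 7719, 7708 and 8902 CPM.

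Further down the order the neighbours were hard to tell apart. Of the 29 pairs of neighbours among the 30 genes, 23 had ranges that overlapped, and 10 had the same order in all 3 samples. Still, 28 of the 30 most abundant genes of each sample were common to all 3. Mitochondrial and presentation genes filled most of the next places and ribosomal protein genes most of those after them. Tmsb4x, which binds actin monomers, stood at 5320 ± 335 CPM, and B2m, the light chain of MHC class I, at 4515 ± 262 CPM. Ly6e, a lipid-anchored surface protein, stood at 3541 ± 153 CPM, and Malat1, a nuclear long noncoding RNA (lncRNA), at 2975, 2675 and 3845 CPM. The plot of these genes shows how much wider mt-Rnr1 and Malat1 were spread than the ribosomal protein genes drawn with them.

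**Figure D2:**
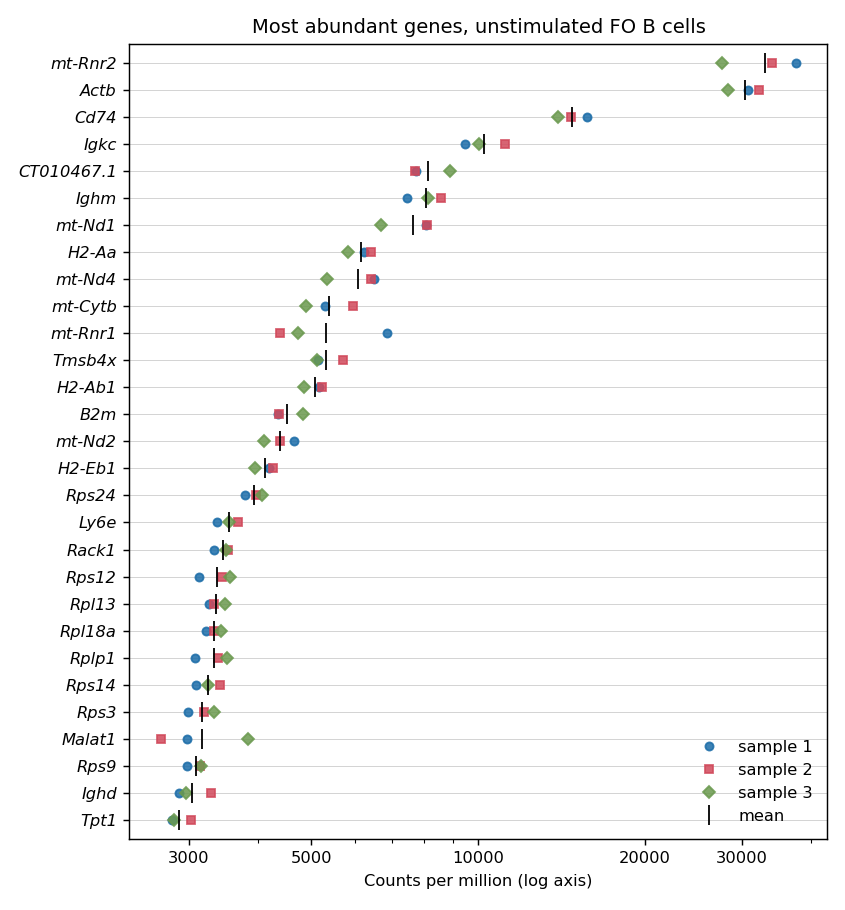
CPM (log axis) of 29 of the 30 most abundant genes in samples 1, 2 and 3 (points) with the mean of the 3 (black line). mt-Rnr2, Actb and Cd74 stand apart from the rest, and from Igkc downwards most neighbours overlap.

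By class, protein-coding genes held 89.7% ± 0.369 of the counts. The 79 cytosolic ribosomal protein genes, which build the small and large subunits of the ribosome, held 12.3%, 12.9% and 13.1% in samples 1 to 3. The mitochondrial genome held 7.70%, 7.01% and 6.06%, a spread of 0.828 percentage points (SD) that was wider than that of any other class. Its 2 rRNA genes made up 3.83% ± 0.60 and its 13 protein-coding genes 3.08% ± 0.236. Genes of the actin cytoskeleton held 5.15% ± 0.285, MHC class II genes 3.37% ± 0.141 and immunoglobulin genes 2.40% ± 0.194. A list of translation genes outside those 79, led by Rack1 and Tpt1, held 2.14% ± 0.0686. Genes of MHC class I and its peptide supply held 1.22% ± 0.0778. Apart from mitochondrial rRNA, noncoding classes were minor. Pseudogenes held 1.51%, lncRNA genes 1.17% ± 0.0896, nuclear rRNA genes 0.811% ± 0.0687 and small RNA genes 0.0663%.

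**Figure D3:**
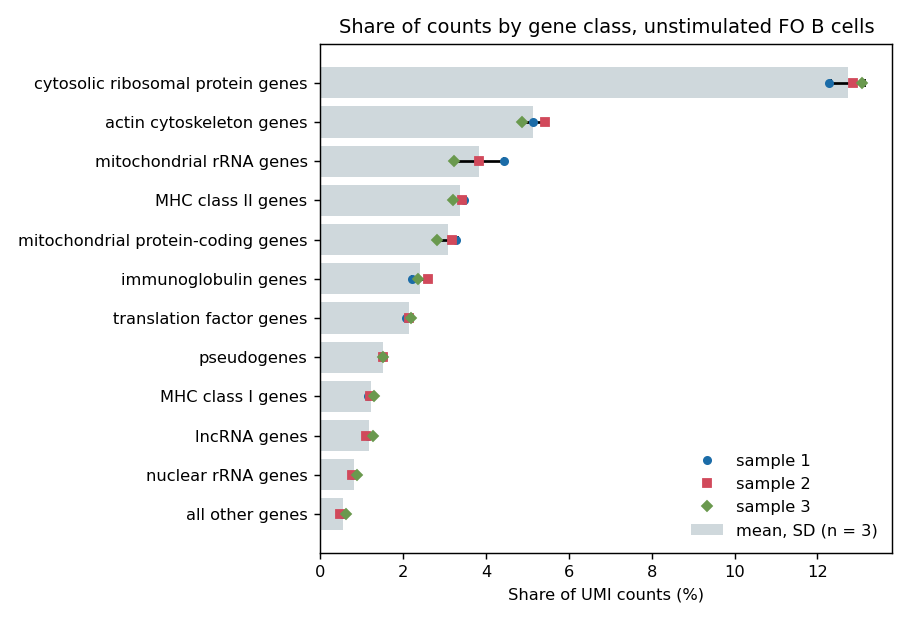
Share of UMI counts (%) by gene class without overlap between classes, as mean (bar), SD (line) and the 3 samples (points). Ribosomal protein genes lead at 12.7%, the mitochondrial rRNA genes have the widest spread relative to their level among the larger classes, and the remaining protein-coding genes, which hold 62.0%, are not drawn.

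Single genes set the order of several chromosomes. Chromosome 7 held 8.07% of the counts and chromosome 5 held 7.90%, but Actb alone was 38.5% of the counts on chromosome 5. Cd74 was 43.1% of chromosome 18, Igkc 23.1% of chromosome 6, Ighm 21.5% of chromosome 12 and Tmsb4x 20.6% of the X chromosome. The Y chromosome held 0.0107% of the counts, of which 99.3% fell on the lncRNA Gm47283. Ddx3y, a Y-linked helicase of male cells, had no count and Uty had 1 count in all, whereas Xist, the RNA of the inactive X chromosome, stood at 267, 222 and 329 CPM.

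The products of the ribosomal protein genes enter the ribosome in fixed and mostly equal numbers. Here the genes' median was 1612 CPM, 54 of 79 were at 1000 CPM or more, and 4 were under 100 CPM. Rps24 stood at 3789, 3966 and 4066 CPM, and Rps12 at 3129, 3445 and 3558 CPM. In both genes sample 1 was the lowest and sample 3 the highest. At the other end, Rpl24 stood at 6.82 CPM, Rpl23a at 25.5 CPM and Rps10 at 67.0 CPM.

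Vertebrate ribosomal protein mRNAs typically begin with a run of pyrimidines, the terminal oligopyrimidine tract, through which mTORC1 controls their translation. The 30 bases around the annotated start were therefore read from RefSeq (GRCm38.p6), from 10 bases before the start to 20 bases after it, for the 58 ribosomal protein genes with an entry. A run of at least 8 pyrimidines that reached within 5 bases of the start was found in 20 of them, or 34.5%. The share was 9.63% of all 27025 genes with an entry, 9.57% of the 6215 protein-coding genes at 10 CPM or more and 13.5% of 37 other nuclear genes at 1000 CPM or more. The letters CTTTC, read on the sense strand in the same window, were found in 24.1% of the ribosomal protein genes and 3.66% of all genes, and on the other strand in 5.17% and 3.54%. Both counts depend on how well the annotated start matches the start used in B cells. The 6 ribosomal protein genes and the 4 other protein-coding genes that were most abundant among those with an entry that could be printed are shown, with the longest pyrimidine run that reaches within 5 bases of the start in capitals. The runs of Rps24 and Rps9 are 9 bases long, and those of the other ribosomal protein genes are 2 or 4 bases. Those of the genes of other function are between 4 and 6 bases, and in Rps12 a longer run lies further downstream of the annotated start.
Rps24, chr14:24490668-24490697, plus strand: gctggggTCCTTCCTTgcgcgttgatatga
Rps12, chr10:23787190-23787219, minus strand: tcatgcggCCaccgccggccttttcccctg
Rpl13, chr8:123102340-123102369, plus strand: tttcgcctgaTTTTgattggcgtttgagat
Rps3, chr7:99483690-99483719, minus strand: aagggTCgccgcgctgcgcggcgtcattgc
Rps9, chr7:3704031-3704060, plus strand: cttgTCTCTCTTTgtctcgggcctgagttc
Rplp0, chr5:115559457-115559486, plus strand: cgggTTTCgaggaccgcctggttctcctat
H2-Aa, chr17:34287804-34287833, minus strand: ttggctggaTCCTCacaatctcttgaagac
Tmsb4x, chrX:167209199-167209228, minus strand: tacgagtgacatcaCCTCatttgcatagaa
B2m, chr2:122147677-122147706, plus strand: ctggCTCTCatttcagtggctgctactcgg
H2-Eb1, chr17:34305857-34305886, plus strand: gccctgTCTCTTattatcttagcaatgagt

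Many ribosomal protein genes have processed pseudogenes, and several mitochondrial genes have copies in the nuclear genome, so the counts of some genes rest on reads that could also come from a copy. To measure this, every 81-base stretch (the length of the reads) in the last 500 bases of a gene's transcripts was looked for in the transcripts of all other genes of GENCODE M21. Among the ribosomal protein genes, 8 shared no stretch and had a median of 2011 CPM, 46 shared up to 50% and had a median of 1699 CPM, and 25 shared 50% or more and had a median of 1294 CPM. Spearman's rho across the 79 genes was -0.28, given as a description. Rpl24 and Rpl23a, among the lowest of the class, shared 88.8% and 88.1% of their stretches. Rpl10a stood at 397 CPM and its pseudogene Rpl10a-ps1 at 610 CPM.

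The 13 mitochondrial protein-coding genes, which encode subunits of the respiratory chain and the ATP synthase, were split by this measure. mt-Nd1, mt-Nd4 and mt-Cytb shared no stretch with another gene and stood at 7618 ± 805, 6079 ± 640 and 5371 ± 525 CPM. mt-Co2, mt-Atp6 and mt-Co3 shared 99.3%, 99.3% and 99.8% of their stretches and stood at 65.3 ± 4.27, 36.9 ± 4.57 and 20.02 ± 3.27 CPM. The copies they share them with lie side by side on chromosome 1 (GRCm38) and stood higher than the mitochondrial genes in every sample. Gm28437, the copy of mt-Co3, stood at 663, 672 and 557 CPM, Gm28661, the copy of mt-Co2, at 315, 306 and 240 CPM, and Gm10925, the copy of mt-Atp6, at 152, 164 and 154 CPM. mt-Co1 was different: it shared 95.0% of its stretches with Gm29216 and yet stood at 1891 ± 100 CPM, against 249 ± 54.8 CPM for the copy. mt-Atp8, which shared none, had 1 count in all.

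mt-Co3 and Gm28437 show how alike such a pair can be. Over the 783 bases of the single exon of Gm28437, the transcripts of both genes had 0 differences. The last 30 bases in common are shown in lower case because no base differs between them.
mt-Co3, chrMT:9360-9389, plus strand: ctatacgtctccatttattgatgaggatct
Gm28437, chr1:24613189-24613218, minus strand: ctatacgtctccatttattgatgaggatct
How the counting chose between the copies was not tested, and the levels of mt-Co2, mt-Co3, mt-Atp6 and their copies are each uncertain for this reason. The plot of level against shared sequence shows the 5 low mitochondrial genes at the right edge.

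**Figure D4:**
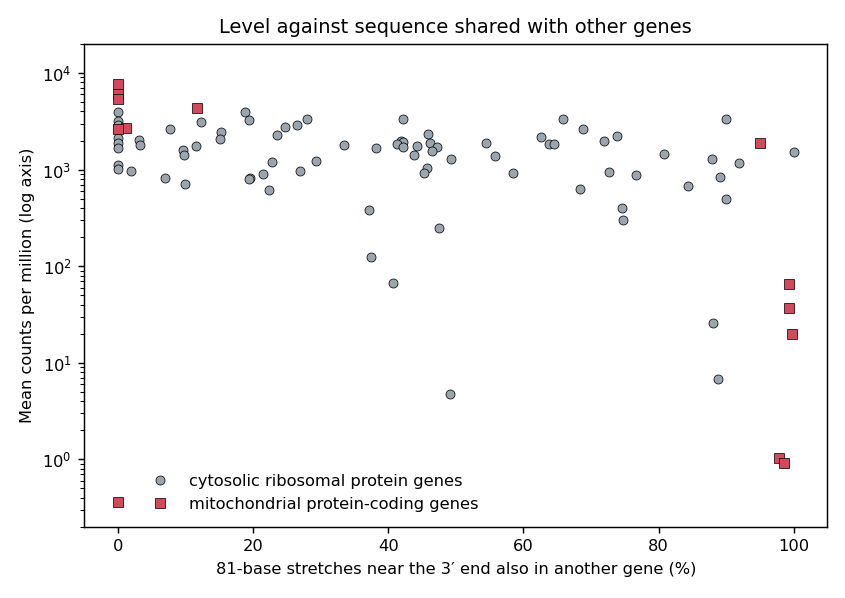
Mean CPM (log axis) of the 79 cytosolic ribosomal protein genes (circles) and the 13 mitochondrial protein-coding genes (squares) against the share (%) of 81-base stretches near the 3′ end that occur in another gene. Of the 6 mitochondrial genes with 95% or more shared, 5 lie under 100 CPM and mt-Co1 lies at 1891 CPM.

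Immunoglobulin heavy chain counts came almost wholly from the unswitched genes. IgM and IgD are made by alternative processing of the same heavy chain transcript. Ighm exceeded Ighd in every sample, with Ighd at 2877, 3294 and 2965 CPM and a ratio of 2.58, 2.60 and 2.74. Counts of the switched heavy chain genes (Ighg, Igha and Ighe) were 41, 42 and 56, or 0.3996% ± 0.0498 of all heavy chain constant counts, and Ighe had none. The highest of them was Ighg2b with 29, 18 and 29 counts. Of the light chains, Igkc exceeded the summed λ constant genes 4.38-fold, 4.10-fold and 4.41-fold. Among the λ genes Iglc2 stood at 1030 CPM, Iglc3 at 840 CPM and Iglc1 at 517 CPM. Light chain constant counts exceeded heavy chain constant counts by a factor of 1.13 ± 0.0301. Variable segments, which lie far from the 3′ end, carried few counts: 70, 42 and 47 for Ighv, 140, 167 and 167 for Igkv, and 32, 24 and 36 for Iglv.

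Genes of B cell receptor (BCR) signaling were all expressed. All 27 listed genes were at 10 CPM or more, where 35.8% of all genes and 54.5% of protein-coding genes reached that level, and their summed level was 12377 ± 415 CPM. Cd79b and Cd79a, the signaling chains of the BCR, differed from each other, with Cd79b at 1720, 2266 and 2188 CPM and Cd79a at 651, 779 and 683 CPM. Cd79b was thus 2.92 ± 0.281 times as high. Cr2 (CD21), a part of the coreceptor, stood at 418 ± 60.9 CPM. Inhibitors of the receptor ranged widely, with the phosphatase Ptpn6 at 1042 ± 133 CPM, the lectin Cd22 at 826 ± 63.0 CPM, the Fc receptor Fcgr2b at 138 ± 20.6 CPM and Cd72 at 51.7 ± 8.27 CPM. Among the kinases and adaptors, Syk stood at 506 ± 79.1, Blnk at 423 ± 22.4, Lyn at 307 ± 34.9 and Btk at 152 ± 15.8 CPM. The lowest member was the adaptor Pik3ap1 at 13.1 CPM.

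Some of the genes of the sort can be read from these counts. By the methods of the study the gate took cells that were high in B220, positive for CD23, intermediate in CD21 and negative for CD93. Ptprc stood at 1232, 1184 and 1249 CPM, which covers all CD45 isoforms and not B220 alone, and Fcer2a, which encodes CD23, at 1119, 1473 and 1140 CPM. Cd93 was at 23.7, 24.9 and 21.8 CPM, low but above the floor in every sample. Other B cell surface genes were high, with Ms4a1 (CD20) at 1837 ± 145 CPM, Fcmr, the Fc receptor for IgM, at 1626 ± 156 CPM, and Tnfrsf13c, the receptor for the survival factor BAFF, at 572 ± 32.3 CPM. All 20 surface and lineage genes with a row were at 10 CPM or more, beside 54.5% of all protein-coding genes. Of these 20, Cd86, a costimulatory ligand that rises on activated B cells, was the lowest at 70.5 ± 14.9 CPM.

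All 22 listed B cell transcription factor genes were at 10 CPM or more, and 21 were above 100 CPM. Of all protein-coding genes, 54.5% were at 10 CPM or more and 12.1% at 100 CPM or more. Pax5, which maintains B cell identity, stood at 718, 675 and 675 CPM, and Ebf1, which acts with it, at 758, 760 and 818 CPM. Foxp1 stood at 1070 ± 32.9, Pou2f2 (Oct2) at 867 ± 26.8, Mef2c at 836 ± 12.5, Irf8 at 756 ± 15.1 and Bach2, which holds back plasma cell differentiation, at 290 ± 17.1 CPM. Klf2, which keeps lymphocytes quiescent and recirculating, had the widest spread of the list relative to its level, at 2340, 1395 and 1576 CPM. Bcl6 and Fli1 were next in relative spread, with Fli1, an ETS factor, at 368, 540 and 407 CPM. Bcl6, the factor of germinal center B cells, was the lowest at 93.8 ± 22.02 CPM.

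Quiescence genes were expressed throughout, and division genes in part. All 17 listed quiescence genes were at 10 CPM or more, with a summed level of 8766 ± 1093 CPM, led after Klf2 by the antiproliferative gene Btg1 at 1324 ± 121 CPM. After Foxp1 and Ets1 came Tsc22d3, a glucocorticoid target, at 1004, 798 and 560 CPM. Of the 25 proliferation genes, 12 were at 10 CPM or more, beside 54.5% of all protein-coding genes, and their summed level was 792 ± 57.9 CPM. Those 12 were mostly genes of DNA replication, with Pcna at 134 ± 4.82 CPM and Mcm5 at 77.6 ± 6.64 CPM, and the cyclin gene Ccnd2 led at 211 ± 41.1 CPM. The mitotic genes Mki67 and Cdk1 were under 10 CPM in every sample: Mki67 stood at 4.55, 7.59 and 2.72 CPM, and Cdk1 at 0, 4.34 and 2.72 CPM. In bulk RNA, a small number of dividing cells and a low level in all cells cannot be told apart.

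Of 17 listed genes of homing and adhesion, 16 were at 10 CPM or more, beside 54.5% of all protein-coding genes. Ccr7, which draws B cells towards the T cell zone, stood at 1081, 658 and 791 CPM. Cxcr5, the receptor for CXCL13, was steady at 188 ± 4.40 CPM. S1pr1, the receptor for egress into blood and lymph, stood at 283, 119 and 149 CPM, so that sample 1 was the highest, as for Ccr7.

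Antigen presentation genes were expressed throughout. All 11 genes listed for MHC class II and all 20 listed for MHC class I were at 10 CPM or more, beside 54.5% of all protein-coding genes. The class I list takes in genes of peptide supply and loading, such as Tap1, Psmb8 and Calr, and the class II list takes in Ciita. The classical chains H2-Aa, H2-Ab1 and H2-Eb1 stood at 6154 ± 289, 5070 ± 204 and 4129 ± 157 CPM, and Cd74 exceeded H2-Aa 2.41 ± 0.110-fold. Genes of peptide loading were lower, with H2-DMa, a chain of the peptide editor H2-DM, at 637 ± 27.2 CPM and H2-Ob, which inhibits H2-DM and marks B cells, at 870 ± 15.4 CPM. Ciita, the master regulator of the class II genes, stood at 559 ± 54.4 CPM. Of the class I heavy chains, H2-K1 stood at 2346 ± 243 and H2-D1 at 1797 ± 40.5 CPM.

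Of the 18 Toll-like receptor genes and adaptors with a row, 12 were at 10 CPM or more, beside 54.5% of all protein-coding genes. Tlr9, the receptor for CpG DNA, stood at 209, 229 and 232 CPM, with the annotated gene extended by 3 kb in the authors' counting. Unc93b1, which carries nucleic acid receptors to the endosome, was higher at 451 ± 77.9 CPM. Tlr7, the receptor for single-stranded RNA, stood at 23.9 ± 5.72 CPM and Tlr1 at 94.7 ± 11.1 CPM. Cd180 and its partner Ly86, a receptor pair of B cells related to Tlr4, stood at 289 ± 27.2 and 292 ± 70.5 CPM, whereas Tlr4 itself was at 5.32 ± 1.79 CPM. Myd88, the shared adaptor, stood at 33.8 ± 8.45 CPM.

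Interferon-stimulated genes had a median of 17.7 CPM, against 13.9 CPM for all protein-coding genes. Of 25 listed, 19 were at 10 CPM or more, beside 54.5% of all protein-coding genes. The summed level of the 25 was 684, 688 and 928 CPM, of which Ifi27l2a alone was 182, 237 and 237 CPM. Sample 3 was the highest in the sum. Isg15 stood at 20.02, 8.67 and 24.5 CPM and Ifit1 at 10.9, 13.0 and 33.5 CPM. Survival genes were steadier, with 24 of 25 at 10 CPM or more, led by the antiapoptotic gene Mcl1 at 710 ± 75.8 CPM, while Bcl2 stood at 173 ± 14.0 CPM and Bcl2l1 at 10.1 ± 2.22 CPM.

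Immediate-early genes, which are transcribed within minutes of a stimulus or of tissue dissociation, were abundant. Of 27 listed, 24 were at 10 CPM or more, beside 54.5% of all protein-coding genes. The summed level of the 27 was 13307, 9586 and 12407 CPM, near that of the BCR signaling genes. Junb stood at 1905, 1375 and 1763 CPM, Fos at 1326, 1080 and 1454 CPM, and Jun at 1026, 564 and 1083 CPM. Sample 2 was the lowest in each of these. Nr4a1, a nuclear receptor gene that BCR signaling induces, stood at 782, 240 and 253 CPM, and Atf3, a stress factor, at 86.5, 10.8 and 15.4 CPM, so that for these genes sample 1 stood apart. Of the heat shock genes in the list, Dnajb1 stood at 111 ± 19.8, Hspa1b at 10.3 ± 1.45 and Hspa1a at 1.99 ± 1.18 CPM, and Ier3 had no count. Whether handling, sorting or culture contributed to these levels was not tested.

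The spread between samples was also measured over all genes. For each gene at 50 CPM or more (3571 genes), the variation between the samples was divided by that expected from counting noise. The median of this ratio was 1.33, and 165 genes were over 10. The ratio grows with abundance, so that it favours abundant genes such as Actb, whose coefficient of variation was 6.65%, against a median of 10.6% for these genes. The largest ratios belonged to mt-Rnr2 and mt-Rnr1, followed by Nr4a1, Irs2, Klf2, Actb, Malat1, mt-Nd5, mt-Nd1 and Jun. The highest sample exceeded the lowest more than 2-fold in 34 genes. Sample 1 was the highest in 24 of these and sample 3 in 10, and sample 2 was the lowest in 29 and sample 3 in 5. Irs2, an adaptor of the insulin receptor that FOXO factors induce, stood at 623, 170 and 218 CPM. Rgs1, a regulator of G protein signaling, stood at 165, 40.1 and 42.6 CPM, and Plk2, a stress-induced kinase, at 247, 75.9 and 118 CPM. Without sample 1 the means were 246 CPM for Nr4a1, against 425 CPM with it, and 194 CPM for Irs2, against 337 CPM. The mitochondrial share (7.70% in sample 1) and the hemoglobin genes described below were also highest in sample 1, and their part in this spread was not tested.

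Markers of other B cell subsets differed in level within each list. Marginal zone B cells lie beside the follicles in the same tissue. Of their 8 listed markers, Cr2, Mzb1 at 269 ± 49.4 CPM and Dtx1 at 173 ± 8.19 CPM made up most of the sum of 919 ± 44.2 CPM. Cr2, the largest part at 418 ± 60.9 CPM, encodes CD21, which the sort of FO B cells itself took at an intermediate level. S1pr3 stood at 5.87 ± 3.24 CPM and Asb2 had 1 count. Of the B-1 cell markers, Bhlhe41 stood at 104, 40.1 and 49.9 CPM and Cd5 at 2.29 ± 1.23 CPM. Of the precursor markers, Vpreb3, which persists into mature B cells, stood at 190 ± 12.9 CPM, and Rag1 had no count. None of the 7 germinal center markers reached 10 CPM on average, and their sum was 28.0 ± 6.88 CPM. Plasma cell markers summed to 87.1 ± 3.96 CPM, led by Slamf7 at 38.6 ± 3.08 CPM, with Jchain at 1.82, 10.8 and 1.81 CPM and Prdm1, which encodes Blimp1, at 4.30 ± 2.82 CPM.

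Lists of markers of cells other than B cells summed to less than 400 CPM each in every sample. T cell markers summed to 44.5 ± 7.12 CPM, of which Lck, also known in B cells, was 36.4 ± 7.91 CPM. Cd3g, Cd8a, Cd8b1, Cd28 and Trdc had no count, and Trac had 2, 2 and 1 counts. NK cell markers summed to 4.53 ± 0.897 CPM, and Klrb1c, Klrk1, Nkg7, Gzma and Eomes had no count. Neutrophil markers summed to 0.967 CPM, with Lcn2 at no count, and platelet markers to 1.94 CPM, with Pf4 and Gp9 at none. Conventional dendritic cell markers summed to 14.4 ± 0.764 CPM. For plasmacytoid dendritic cells, Pacsin1 held 31.9 of a summed 38.9 CPM, and Siglech and Klk1 had no count. Stromal and endothelial markers summed to 0, 5.42 and 1.81 CPM in samples 1, 2 and 3, with Col1a2 and Kdr at none. The 6 mast cell and basophil markers, and other listed genes without a row, were not analysed here.

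The lists of macrophages and of red cells varied between the samples. Monocyte and macrophage markers summed to 27.3, 102 and 30.8 CPM, with none of 15 at 10 CPM or more on average. In CPM, sample 2 was the highest for all 14 of those with a count, although in counts it tied with another sample for Cd68, Marco and Fcgr1. Among them were Hmox1, which degrades heme, at 3.64, 20.6 and 3.63 CPM and the complement gene C1qa at 0, 11.9 and 3.63 CPM. Without sample 2 the summed level was 29.1 CPM. Erythroid markers summed to 346, 163 and 59.8 CPM, almost all of it in the 4 globin genes. Hbb-bs stood at 220, 102 and 32.6 CPM and Hba-a1 at 41.0, 14.1 and 4.53 CPM, so that the samples kept the order 1, 2, 3 in both. Alas2, which makes heme in erythroid precursors, and Car1 had no count. Without sample 1 the erythroid sum was 111 CPM. In each sample these lists together were below the level of Cd79a alone.

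**Figure D5:**
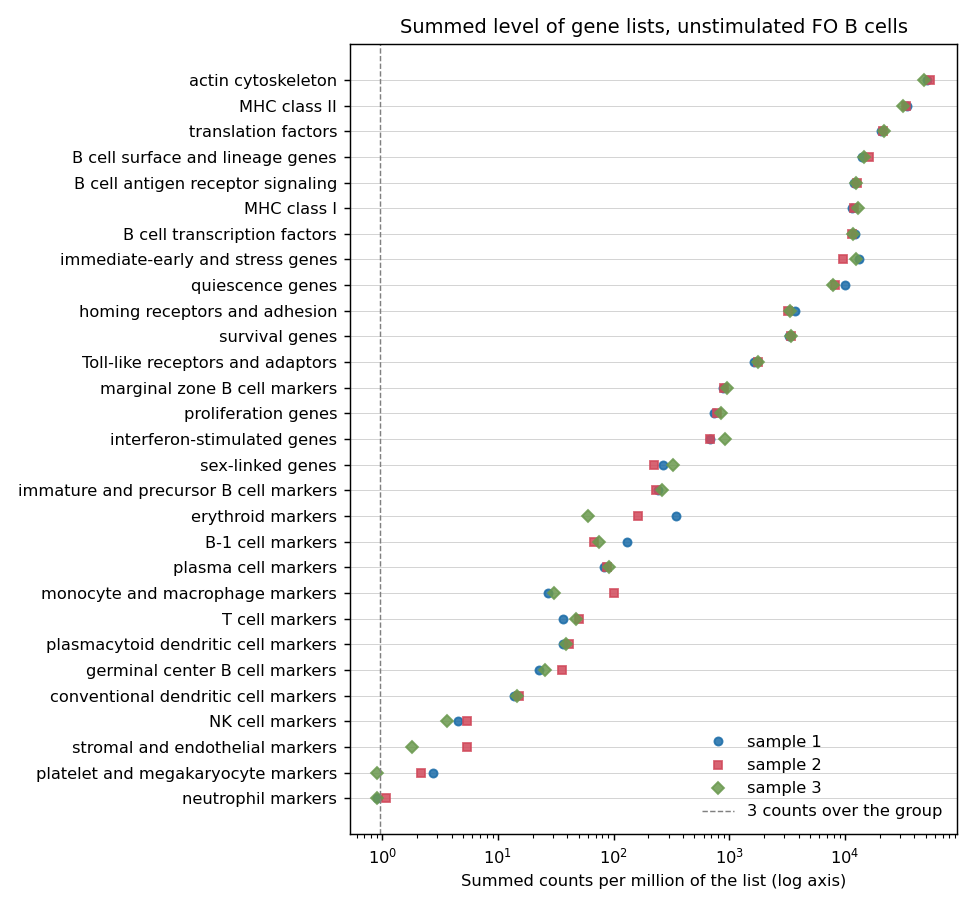
Summed CPM (log axis) of each gene list in samples 1, 2 and 3, with a dashed line at 3 counts over the group; a list at 0 in a sample has no point, and the mast cell and basophil list is not drawn. The B cell receptor, transcription factor and surface lists, the presentation lists and the immediate-early list lie above 1000 CPM, lists of cells other than B cells lie under 400 CPM, and the erythroid list falls from 346 CPM in sample 1 to 59.8 CPM in sample 3.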

How the data were processed

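RNA of sorted FO B cells was sequenced by BRB-seq. Per the labels and the study's methods, the authors extracted UMIs with UMI-tools 1.1.2, trimmed reads with Trim Galore 0.6.7, mapped them to GRCm38 with HISAT2 2.2.1 and assigned them with featureCounts 2.0.1. The annotation release is not given in the sources used here. The deposited values are raw UMI counts for each gene, and the columns of the 3 unstimulated samples were used unchanged.

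CPM were counts divided by the sample's total over all genes. All 22561 identifiers matched GENCODE M21, which gave positions and lengths. Biotypes and chromosomes were those deposited with the counts, and GENCODE M21 gave the same biotype for 22472 genes. TMM factors from edgeR 4.0.16 were between 0.987 and 1.007. No groups were compared, so there was no test. The ratio of variation to counting noise was tested on simulated data.

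Named genes were the 30 most abundant, the leading members of each list and those at 0, the immunoglobulin constant genes, the leading genes of each biotype, the 10 with the largest ratio of variation to counting noise and the genes of the sort. Other members of the lists, of the ribosomal and mitochondrial classes, and genes with a wide range were named after their values were seen. Some genes that fall under this rule are not reported here. The samples, lists and choices were made with earlier results of these data known. Alternatives were summed counts, TMM-scaled totals, totals without mitochondrial and rRNA genes, counts drawn down to the smallest total, other detection rules, and each sample left out. Sequence windows came from RefSeq and GENCODE transcripts.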

Additional observations from a re-analysis of the deposited data

How the results depend on the processing

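With mitochondrial and rRNA genes left out of the total, the share was 13.8% for ribosomal protein genes, 3.65% for MHC class II genes, 2.60% for immunoglobulin genes, 93.9% for protein-coding genes and 29.3% for the 100 most abundant genes, each a change of more than 1 SD. The same total moved 61 of 201 named nuclear genes by more than 1 SD. Summed counts moved no share, ratio or summed level that was tried by more than 1 SD. Counts drawn down to 922450 moved no share or summed level tried by more than 1 SD, and no count of genes by more than 1.5 times. TMM-scaled totals were tried only for named genes, summed levels and the number of genes at 10 CPM or more, and moved none beyond these limits. Detection was 9272 genes with at least 4 counts in every sample and 16394 genes with at least 1 count in any sample, against 11637. By sample left out, the erythroid sum was between 111 (without sample 1) and 254 CPM, against 189 CPM, and the monocyte and macrophage sum between 29.1 (without sample 2) and 66.4 CPM, against 53.3 CPM. The lower value of each is a shift of more than 1.5 times. With 3 samples, leaving 1 out always moves a mean by less than 1 SD, so that limit could not show a shift here. Among other genes, the means of Nr4a1, Irs2, Rgs1, Atf3 and Hbb-bs also shifted by more than 1.5 times without sample 1. Genes under the floor of 0.960 CPM could not be told from absent ones at this depth. No paired analysis was possible because the results come from a single group and no test.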

Other observations

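Among genes classed as lncRNA, Malat1 held the largest share. Next came Ifi30 at 398 CPM, which is classed there by its biotype of processed transcript although the gene is known for a lysosomal thiol reductase of antigen processing. Gas5, which hosts small nucleolar RNAs, stood at 334 CPM and Xist at 273 CPM.

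The lncRNA Gm47283 on the Y chromosome stood at 81.01, 73.7 and 165 CPM, while the other 13 genes of that chromosome with a row had 2 counts in all. Whether its reads also match another chromosome was not tested. Mir6236, annotated as a miRNA gene, stood at 145, 102 and 278 CPM, although an oligo(dT) primed library is not made to capture mature miRNAs.

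Actg1, the other cytoplasmic actin, stood at 27.3, 59.6 and 48.05 CPM against 30805, 32245 and 28250 CPM for Actb. It shared 42.6% of its 81-base stretches near the 3′ end with other genes, and Actb shared 1.103%.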
